A study of Homo sapiens with 6 samples.

Results

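Hepatocyte growth factor (HGF), its receptor MET and 6 genes that control the activation or the relay of this signal were followed in 1CT and 1CT-A cells. The 8 genes, HGF, MET, MST1R, ST14, SPINT1, SPINT2, GAB1 and HGFAC, were selected by symbol from the 24462 symbols of the count files, and each symbol was entered once. 1CT is an immortalized human colon epithelial cell line that carries the telomerase gene, and 1CT-A is its version depleted of wild type APC, which the labels call an APC knockdown (APC KD) against the wild type (WT). Bulk RNA-seq gave 3 libraries for each line, all from untreated cells in the same medium, which contains 2% fetal bovine serum, 20 ng/ml epidermal growth factor and the additions insulin, hydrocortisone, selenite and transferrin. Lexogen QuantSeq libraries were made from 500 ng of total RNA, and their reads lie near the 3′ end of each transcript. Each line is a received stock, the construct in 1CT-A and any control vector in 1CT are not given for these libraries, and no source says that the 3 libraries of a line came from separate cultures, so that the spread between them may be technical. The members were listed with the difference between the lines already known, HGF being among the large rises, and their values are therefore given as a description without a test.

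HGF is a secreted growth factor made mainly by mesenchymal cells, and in the gut it acts on epithelial cells that carry MET, a receptor tyrosine kinase that drives growth, scattering and migration. The factor leaves the cell as an inactive chain and must be cut by a serine protease before it can switch on MET. HGFAC, a protease of blood plasma, and ST14 (matriptase), a membrane protease of epithelia, can make this cut. SPINT1 and SPINT2 (HAI-1 and HAI-2) are membrane-bound Kunitz inhibitors that hold these proteases in check, GAB1 is the docking protein that the active MET recruits, and MST1R (RON) is the closest relative of MET, with MST1 as its ligand.

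The promoters of HGF and MET are shown because these are the members with a clear difference between the lines. Both genes lie on chromosome 7, and the windows are the 250 bases before the RefSeq gene start in the GRCh38.p14 build, taken by gene symbol, whereas the submitters' processing notes name hg19. The HGF window is chr7:81770048-81770297 on the minus strand and the MET window is chr7:116671946-116672195 on the plus strand. Capitals mark CG dinucleotides, the sites that DNA methylation can act on.
HGF: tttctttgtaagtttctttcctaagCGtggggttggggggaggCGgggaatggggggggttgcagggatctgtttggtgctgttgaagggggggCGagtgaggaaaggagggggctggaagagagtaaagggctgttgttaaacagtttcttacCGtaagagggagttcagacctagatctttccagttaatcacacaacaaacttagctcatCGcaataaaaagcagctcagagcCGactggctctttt
MET: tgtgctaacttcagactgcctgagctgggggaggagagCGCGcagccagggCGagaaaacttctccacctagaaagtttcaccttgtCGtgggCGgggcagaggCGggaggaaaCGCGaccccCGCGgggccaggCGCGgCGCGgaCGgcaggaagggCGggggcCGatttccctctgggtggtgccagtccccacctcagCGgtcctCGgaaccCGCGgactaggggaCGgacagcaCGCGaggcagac
The HGF window holds 6 CG dinucleotides and has 50% G and C, and the MET window holds 24 and has 68.4%. Over the 35116 RefSeq windows of this length the median is 11, and 38.1% of them hold fewer than the HGF window and 76.3% fewer than the MET window. Among the other members with a RefSeq window, MST1R has 20 CG dinucleotides, HGFAC has 7, and the 2 SPINT1 windows have 35 and 22. ST14, SPINT2 and GAB1 have no entry. GGGCGG, the core of the GC box that SP1 binds, was searched on both strands. It is found 2 times in the MET window, 4 times in that of MST1R, 3 times in the first SPINT1 window and not in the HGF window, while 42.6% of all windows hold it. CTTTGAT and CTTTGAA, 2 forms of the core letters of TCF/LEF sites, are in none of the members' windows on either strand. Over all windows, 5.94% hold at least 1 of these 2 forms. Other forms, such as the CTTTGTA near the start of the printed HGF window, were not searched. The AP-1 letters TGACTCA (4.2% of all windows) and the TATA box letters TATAAA (10.7%) are not in the members' windows either. Of the motifs searched, only GGGCGG had a match in these windows, so that matches of different motifs do not overlap.

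Library totals lay between 7788679 and 8452258 counts for 1CT, and between 11158108 and 12602988 for 1CT-A, a mean ratio of 1.43. The detection limit of 3 counts in a library equals 0.355 to 0.385 CPM (counts scaled to a library total of 1e6) in 1CT, and 0.238 to 0.269 CPM in the deeper 1CT-A libraries, and covers counting error only. The depleted gene APC was at 46.6 ± 2.75 CPM in 1CT against 31.9 ± 2.21 CPM in 1CT-A (each SD, n = 3). The defining markers of colon epithelium were largely absent from both lines. Of 20 epithelial markers, 13 had at most 3 counts in every library, and EPCAM, CLDN3, VIL1, CDX1, GRHL2, OVOL1, RAB25 and MUC2 had none. All 20 mesenchymal or fibroblast markers had enough counts for the test. All 5 endothelial markers had at most 3 counts in every library, as did 4 of 6 leukocyte markers, PTPRC among them.

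HGF transcripts were scarce in 1CT and plain in 1CT-A. There were 12, 26 and 13 HGF reads in the 1CT libraries, which is 1.42, 3.14 and 1.67 CPM, and 290, 258 and 269 reads in the 1CT-A libraries, which is 26.0, 22.6 and 21.3 CPM. The lowest 1CT-A library lay far above the highest 1CT library, and the 1CT replicate 2 library held about as many HGF reads as both other 1CT libraries together. The means were 2.08 ± 0.93 CPM (SD, n = 3) and 23.3 ± 2.40 CPM (SD, n = 3). With 1CT-A set over 1CT, the fitted log2 fold change was 3.44 (standard error, SE, 0.22), a fold of 10.9, and 99.8% of the 12514 genes tested had a smaller one. Without 1CT replicate 2 it was 3.87. In bulk RNA, more cells that make HGF and more HGF RNA in each cell cannot be told apart. Counts per symbol also pool the long form of HGF with short forms that end earlier in the gene and lack the protease domain.

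MET was well counted in both lines and lower in 1CT-A. The reads were nearly equal, 863, 836 and 831 in 1CT and 786, 860 and 888 in 1CT-A, with sums of 2530 and 2534, although the 1CT-A libraries were deeper. Per library total this was 102.1, 100.9 and 106.7 CPM in 1CT against 70.4, 75.5 and 70.5 CPM in 1CT-A. The lines did not overlap, and the gap between them was wider than the spread within either. The log2 fold change was -0.56 (standard error 0.08), so that MET was 1.47-fold lower in 1CT-A, and 19.2% of the genes tested had a lower log2 fold change. Its size depended little on the scaling, with -0.52 by library totals alone, beside a median over all genes tested of -0.01 with TMM and 0.03 by library totals.

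The amount of ligand RNA relative to receptor RNA can be compared between the lines without any scaling of libraries. For every 100 MET reads there were 1.39, 3.11 and 1.56 HGF reads in the 1CT libraries. In the 1CT-A libraries there were 36.9, 30 and 30.3. Reads of both genes were thus present in all 6 libraries.

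**Figure D1:**
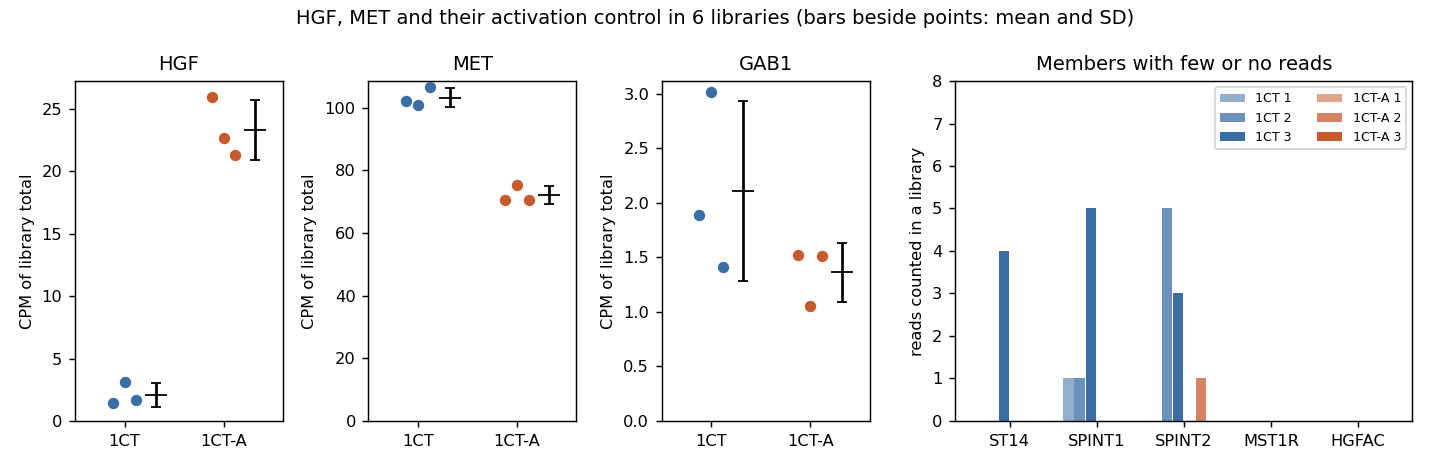
Reads of the 8 members in 3 1CT (blue) and 3 1CT-A (orange) libraries. The left panels show CPM of the library total for HGF, MET and GAB1 with a point per library and the mean with SD beside them, and the right panel shows read counts of ST14, SPINT1, SPINT2, MST1R and HGFAC with a bar per library. HGF lies between 1.42 and 3.14 CPM in 1CT and between 21.3 and 26.0 CPM in 1CT-A, MET lies higher in 1CT, GAB1 overlaps, and no library holds more than 5 reads of any other member.

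GAB1, the docking protein, was counted at a low level in both lines. It had 16, 25 and 11 reads in 1CT, or 1.89, 3.02 and 1.41 CPM, and 17, 12 and 19 reads in 1CT-A, or 1.52, 1.05 and 1.51 CPM. The lines overlapped, and the 1CT replicate 2 library was again the highest. The log2 fold change of -0.67 had a standard error of 0.35. It became -0.32 without that library and -0.86 (SE 0.37) without 1CT replicate 3. With all libraries, a difference was not told apart from the spread between libraries. HGF, MET and GAB1 were the 3 members with enough counts to enter the fit across all genes, in which 51.0% of the genes tested passed the quasi-likelihood test of edgeR at an adjusted p of 0.05. Since the members were listed with this comparison known, no call is given for them.

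The proteases and inhibitors that set the activation of HGF on epithelial cells were at the limit of detection. ST14 had 4 reads in the 1CT replicate 3 library and none in the other 5. SPINT1 had 1, 1 and 5 reads in 1CT and none in 1CT-A. SPINT2 had 0, 5 and 3 reads in 1CT and 0, 1 and 0 in 1CT-A. The few reads of these genes lay almost wholly in 1CT, the shallower libraries. Those of ST14 and SPINT1 lay mostly in replicate 3, and those of SPINT2 mostly in replicate 2. Over the 1CT libraries together SPINT1 was at 0.285 CPM (exact 95% Poisson interval 0.115 to 0.588) and ST14 at 0.163 CPM (0.0444 to 0.418). By the limit of 3 counts, 0 reads over the 1CT-A libraries allow up to 0.0853 CPM. This limit, which is another kind of bound than the exact intervals, lies below the SPINT1 interval and within that of ST14. Without 1CT replicate 3, only 2 SPINT1 reads and 0 ST14 reads remain in 1CT. With the reads of each line pooled, the ratio of 1CT to 1CT-A for SPINT2 was 11.5. Its exact 95% interval, from 1.54 to 509, covers counting error only and leaves out the spread between libraries. For SPINT2 the libraries of the lines overlapped. MST1R and HGFAC had 0 reads in all 6 libraries. By the same limit of 3 counts this allows up to 0.122 CPM over the 1CT libraries and 0.0853 CPM over the 1CT-A libraries. The upper end of the exact 95% Poisson interval for 0 reads over the 1CT libraries is 0.150 CPM. None of these 5 genes had enough counts for the test, and their RNA was not detectable or barely detectable at this depth.

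Reads on olfactory receptor genes, taken as a set of little expected use in these cells, were also more frequent in 1CT. The 378 olfactory receptor genes summed to 4.50, 3.38 and 4.11 CPM in the 1CT libraries and to 1.61, 1.40 and 1.67 CPM in the 1CT-A libraries. Among them, 6 genes (1.59%) reached the 4 reads of ST14 over the 1CT libraries and 2 genes (0.529%) reached the 7 reads of SPINT1, and as many the 8 reads of SPINT2. The 1CT libraries held reads on 16393 to 16635 symbols and the deeper 1CT-A libraries on 15653 to 15769. In the 1CT replicate 2 library a single olfactory receptor gene held 10 of the 28 reads of this set. Whether reads of this set are stray was not tested, nor was the part of stray reads in the ST14, SPINT1 and SPINT2 counts.

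The summed level of epithelial marker genes was lower in 1CT-A. The 20 epithelial markers summed to 56.4 to 59.8 CPM in 1CT against 37.6 to 44.1 CPM in 1CT-A, and of the 4 that could be tested CLDN7, KRT18 and KRT19 were lower in 1CT-A and ESRP2 (log2 fold change -0.17, edgeR adjusted p = 0.255) did not pass. The others had too few reads for the test. Among them CDH1 (E-cadherin) had 4, 3 and 3 reads in 1CT and 0, 0 and 3 in 1CT-A, whereas CLDN4 (a claudin) had 2, 2 and 1 in 1CT and 1, 1 and 7 in 1CT-A. The summed level of the 20 mesenchymal or fibroblast markers, with FN1 (fibronectin) as the main part, was 47210 to 56280 CPM in 1CT against 24290 to 25700 CPM in 1CT-A. In this list 6 genes rose, among them COL3A1 (a fibrillar collagen, log2 fold change 2.37, SE 0.18, adjusted p = 2.7e-07 by edgeR) and TWIST1 (a transcription factor of the mesenchyme, 1.87, SE 0.13, adjusted p = 1.68e-07 by edgeR), and 8 fell, among them FN1 (-1.33, SE 0.07, adjusted p = 1.05e-08 by edgeR) and S100A4 (-2.08, SE 0.11, adjusted p = 8.15e-09 by edgeR). Over all genes tested, 25.0% were higher and 26.0% lower in 1CT-A. The mesenchymal marker list as a whole thus did not move one way with HGF, and the part of either marker list in the HGF difference was not tested.

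**Figure D2:**
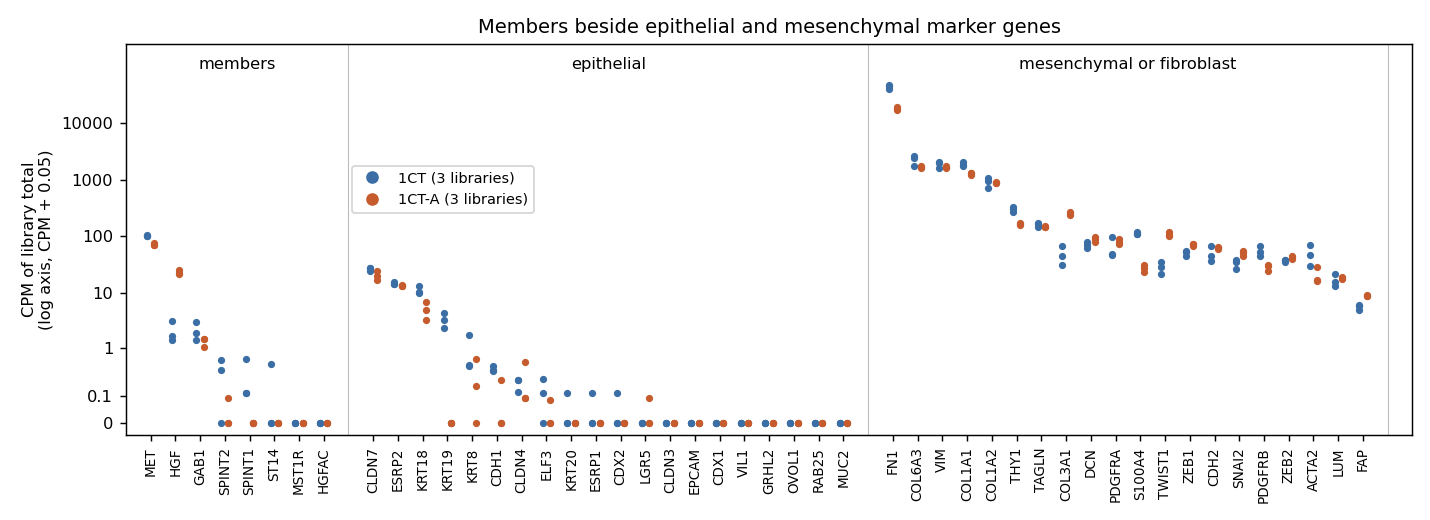
CPM of the library total on a log axis (CPM + 0.05) for the 8 members, 20 epithelial markers and 20 mesenchymal or fibroblast markers, with a point for each of 3 1CT (blue) and 3 1CT-A (orange) libraries. MST1R and HGFAC lie at 0 together with 8 epithelial markers, whereas every mesenchymal marker has reads in every library.

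To place the members in their pathway, 97 further genes were listed by their role. Of these, 78 had enough counts for the test, 19 were higher in 1CT-A (24.4%), 21 were lower (26.9%) and 38 did not pass. The shares over all genes tested were 25.0% higher and 26.0% lower, so that the list as a whole moved about as often as any gene, and its median log2 fold change was -0.02 beside -0.01 for all genes. The genes of the list differed in direction by role, as described next, and the differences between roles were not tested.

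MST1, the ligand of MST1R, was lower in 1CT-A. It had 15, 18 and 17 reads in 1CT and 11, 5 and 15 in 1CT-A, and the log2 fold change was -1.24 (SE 0.37, adjusted p = 0.0141 by edgeR). Without 1CT-A replicate 2 it was -0.92 and did not pass (edgeR adjusted p = 0.0567). MST1 has near-identical pseudogene copies, so that its reads may have been divided in counting.

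Among 12 further proteases that can cut HGF or its activators, 9 had too few reads for the test, including the membrane proteases HPN (hepsin) with 0 reads in all libraries and PRSS8 (prostasin) with at most 1. Of the 3 that were tested, the plasminogen activators PLAU and PLAT rose in 1CT-A, where 25.0% of all genes tested were higher. F12 (coagulation factor XII), picked after the values were seen, lay the other way, at 5.09, 5.19 and 8.73 CPM in 1CT against 4.12, 4.3 and 4.52 CPM in 1CT-A without overlap, and did not pass (log2 fold change -0.59, SE 0.24, adjusted p = 0.0538 by edgeR). PLAU, the urokinase that can also cut HGF, was at 25.8, 50.4 and 14.4 CPM in 1CT against 78.4, 109.5 and 106.7 CPM in 1CT-A. The 1CT libraries of PLAU were spread widely, with replicate 2 the highest, but did not reach the lowest 1CT-A library. Its log2 fold change was 1.66 (SE 0.28, adjusted p = 3e-04 by edgeR). It was 2.24 without 1CT replicate 2 and 1.35 without 1CT replicate 3, the lowest library. PLAT, the tissue-type activator, was at 40.8, 50.1 and 36.7 CPM in 1CT against 67.8, 72.1 and 66.9 CPM in 1CT-A, which gave a log2 fold change of 0.66 (SE 0.10, adjusted p = 1.6e-04 by edgeR).

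Inhibitors of these proteases changed in both directions. TFPI2, a secreted Kunitz inhibitor, was at 39.8, 36.1 and 26.8 CPM in 1CT against 90.1, 101.1 and 99.3 CPM in 1CT-A, and its log2 fold change was 1.46 (SE 0.12, adjusted p = 4.6e-07 by edgeR). TFPI, its relative that inhibits the start of coagulation, rose by 0.33 on the log2 scale (SE 0.06, adjusted p = 8.0e-04 by edgeR), and APLP2, a membrane protein with a Kunitz domain, fell by 0.43 (SE 0.07, adjusted p = 1.7e-04 by edgeR). Each of TFPI, TFPI2 and APLP2 had at least 209 reads in every library.

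Of the co-receptors and partners of MET at the cell surface that were tested, 57.1% were lower and 21.4% higher. The shares over all genes tested were 26.0% and 25.0%. These co-receptors and partners were more often lower than higher, with 8 lower, 3 higher and 3 that did not pass among 14 tested. NRP2, a neuropilin that can bind HGF, rose most of the 3, from 11.95, 16.8 and 13.7 CPM in 1CT to 47.9, 47.3 and 49.4 CPM in 1CT-A (log2 fold change 1.73, SE 0.12, adjusted p = 9.9e-08 by edgeR). SDC1, a heparan sulfate proteoglycan of epithelia, rose by 0.54 (SE 0.10, adjusted p = 8.4e-04 by edgeR) and NRP1 by 0.29 (SE 0.08, adjusted p = 0.00684 by edgeR). PLXNB2, a semaphorin receptor that can pair with MET, fell by 0.75 (SE 0.09, adjusted p = 2.4e-05 by edgeR). ITGA6, a laminin-binding integrin chain, fell by 0.64 (SE 0.13, adjusted p = 8.9e-04 by edgeR), while its partner ITGB4 had at most 7 reads in a library and was not tested. SDC2 fell by 0.93 (SE 0.30, adjusted p = 0.0194 by edgeR), a call that was lost without 1CT replicate 2, 1CT-A replicate 1 or 1CT-A replicate 3 (edgeR adjusted p between 0.0735 and 0.0895). CD44, whose variant form presents HGF to MET, was at 416.5 ± 29.5 CPM in 1CT against 429 ± 1.90 CPM in 1CT-A (each SD, n = 3), which gave a log2 fold change of 0.00 (SE 0.07, adjusted p = 0.96 by edgeR) whose sign turned under a stricter filter (-0.0117). CDCP1, a transmembrane partner of SRC kinases that was picked after the values were seen, had the lowest log2 fold change of the role at -2.16 (SE 0.37, adjusted p = 2.9e-04 by edgeR).

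Most adaptors and relay proteins did not pass, 18 of 27, with 3 higher and 6 lower. Here 33.3% were called, beside 51.0% over all genes tested. GAB2, the close relative of GAB1, fell from 21.4, 22.3 and 19.5 CPM in 1CT to 11.9, 11.2 and 10.7 CPM in 1CT-A, which gave a log2 fold change of -0.94 (SE 0.12, adjusted p = 2.8e-05 by edgeR). SHC1, an adaptor that links receptors to RAS, fell by 0.88 (SE 0.07, adjusted p = 6.8e-07 by edgeR), and MAPK3 (ERK1), a kinase at the end of that route, by 0.78 (SE 0.09, adjusted p = 1.0e-05 by edgeR). PAK1, a kinase of cell motility, rose by 0.67 (SE 0.10, adjusted p = 1e-04 by edgeR) and CRKL, an adaptor bound by GAB1, by 0.40 (SE 0.11, adjusted p = 0.00862 by edgeR). RANBP9, a scaffold reported to bind MET, rose by 0.39 (SE 0.13, adjusted p = 0.0287 by edgeR). The RANBP9 call was lost without 1CT replicate 3 and without any 1 of the 1CT-A libraries (edgeR adjusted p from 0.0614 to 0.0775). GRB2, the adaptor that joins MET to GAB1 and to SOS, had a log2 fold change of 0.03 (SE 0.08, adjusted p = 0.759 by edgeR), and PTPN11 (SHP2), the phosphatase bound by GAB1, one of 0.17 (SE 0.07, adjusted p = 0.0687 by edgeR). PTPN11 passed with scaling by library totals alone (edgeR adjusted p = 0.0263) and without 1CT replicate 3 (edgeR adjusted p = 0.0278).

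Genes that shed, internalize or damp MET mostly did not pass, with 5 higher, 2 lower and 13 that did not pass among 20. In this role 35.0% were called, beside 51.0% over all genes tested. ADAM10, a protease that sheds the outer part of MET, rose by 0.63 (SE 0.11, adjusted p = 3.8e-04 by edgeR). SH3KBP1 (CIN85), which acts with CBL in the uptake of receptors, fell by 0.76 (SE 0.07, adjusted p = 1.6e-06 by edgeR), while CBL, the ubiquitin ligase of MET, had a log2 fold change of -0.03 (SE 0.09, adjusted p = 0.828 by edgeR) that became 0.0105 with scaling by library totals alone. The Sprouty genes, feedback inhibitors of receptor kinase signals, went apart. SPRY4 fell by 0.64 (SE 0.17, adjusted p = 0.00661 by edgeR), and SPRY2 rose by 0.43 (SE 0.14, adjusted p = 0.0207 by edgeR) but did not pass without 1CT-A replicate 1 (edgeR adjusted p = 0.107) or without 1CT-A replicate 3 (edgeR adjusted p = 0.0536). SPRY1, picked after the values were seen, had 10, 7 and 5 reads in 1CT and 61, 72 and 71 reads in 1CT-A, with a log2 fold change of 2.64 (SE 0.28, adjusted p = 5.4e-06 by edgeR). PTPN2, a phosphatase that acts on MET, rose by 0.31 (SE 0.11, adjusted p = 0.0283 by edgeR), and this call was lost without 1CT replicate 3, 1CT-A replicate 2 or 1CT-A replicate 3 (edgeR adjusted p from 0.0684 to 0.0983).

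Of the transcription factors reported at the MET or HGF promoters, 4 were called higher and 2 lower of 8 tested. Among all genes tested, 51.0% were called, 25.0% higher and 26.0% lower, so that more calls than not is no feature of this role alone. Whether this role differed from all genes was not tested. PPARG, a nuclear receptor, was at 5.17 ± 0.49 CPM in 1CT against 12.4 ± 0.94 CPM in 1CT-A (each SD, n = 3), which gave a log2 fold change of 1.22 (SE 0.155, adjusted p = 2.78e-05 by edgeR). SP1 rose by 0.77 (SE 0.11, adjusted p = 6.3e-05 by edgeR), and CEBPB rose by 0.66 (SE 0.09, adjusted p = 3.6e-05 by edgeR). HIF1A, the hypoxia factor, fell by 0.23 (SE 0.07, adjusted p = 0.0127 by edgeR), a call that was lost with no filter on low counts (edgeR adjusted p = 0.0505), without 1CT replicate 1 (edgeR adjusted p = 0.0695) and without 1CT-A replicate 3 (edgeR adjusted p = 0.0652).

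**Figure D3:**
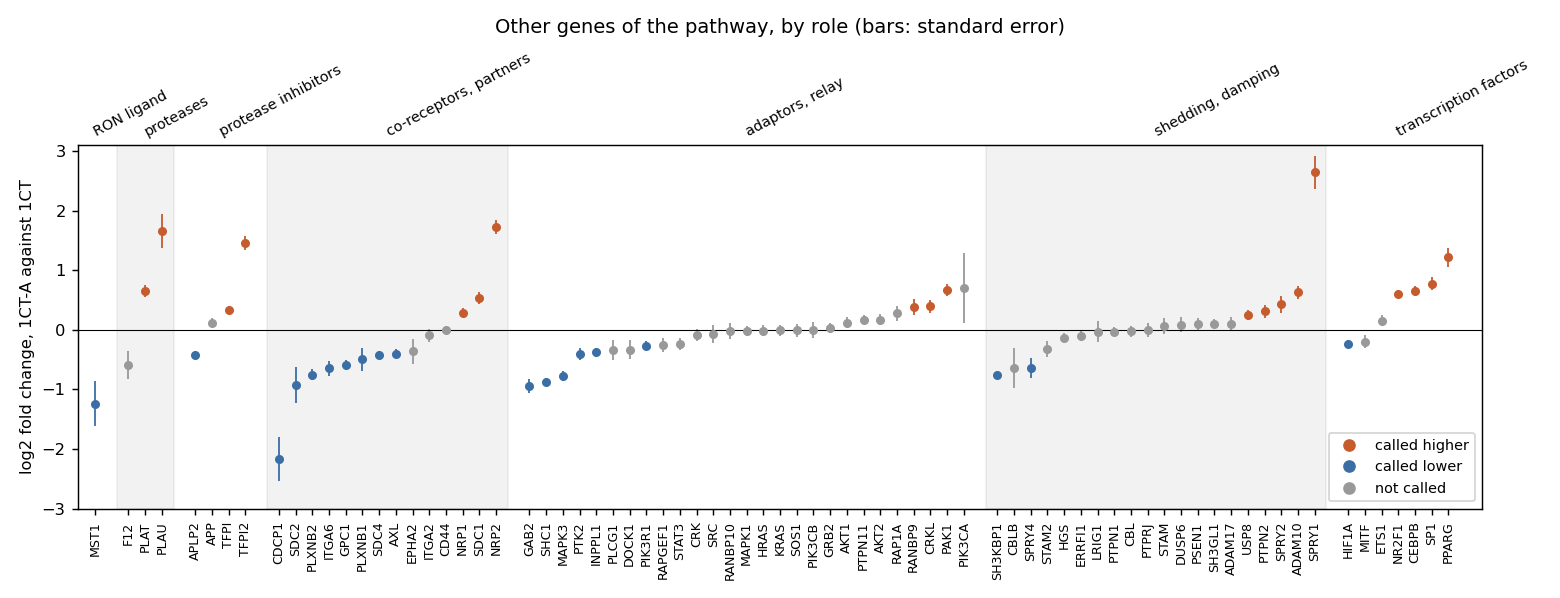
Log2 fold change (1CT-A over 1CT) for 76 of the 78 tested genes of the pathway list, grouped by role, with the standard error as a bar. Orange points are called higher (19), blue points lower (19) and grey points did not pass (38) at an adjusted p under 0.05, and 2 further genes called lower, which are not reported here, are not drawn. The plasminogen activators PLAU and PLAT lie above 0, and the co-receptors lie mostly below it.

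Genes whose profile over the 6 libraries was nearest to that of HGF were found among 9816 genes that reached 5 CPM on average, by the Euclidean distance between centred log2(CPM + 0.5) values. They were EREG (the growth factor epiregulin, distance 0.557), FIBIN (a secreted protein, 0.653), LEF1 (a transcription factor that partners β-catenin, 0.761), JUNB (an AP-1 subunit, 0.762) and PTGER3 (a receptor of prostaglandin E2, 0.781). EREG had 3, 10 and 3 reads in 1CT and 103, 133 and 157 in 1CT-A, with replicate 2 the highest 1CT library, as for HGF. FIBIN was also highest in replicate 2 among the 1CT libraries, at 16.7, 22.1 and 12.7 CPM in 1CT, before 129.3, 127.6 and 129.3 CPM in 1CT-A. LEF1 had 9, 14 and 9 reads in 1CT and 143, 169 and 116 in 1CT-A. Since the genes were picked by this profile, a shared high value in 1CT replicate 2 follows in part from the choice. EREG, LEF1 and PTGER3 reached the mean of 5 CPM only through 1CT-A, with means of 0.649, 1.30 and 0.612 CPM in 1CT.

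The 5 genes nearest to MET were TCEB2 (a subunit of elongin, distance 0.067), TBC1D9B, MAP3K6 (a kinase), SRA1 and B3GAT2 (a glucuronyltransferase), all within a distance of 0.094. TCEB2 was at 153.8 ± 8.52 CPM in 1CT against 108.6 ± 4.07 CPM in 1CT-A (each SD, n = 3). The nearest genes of MET lay closer to it than those of HGF did to HGF, on a difference between the lines that is itself far smaller. With 6 libraries of 2 lines the likeness rests mainly on the difference between the lines.

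**Figure D4:**
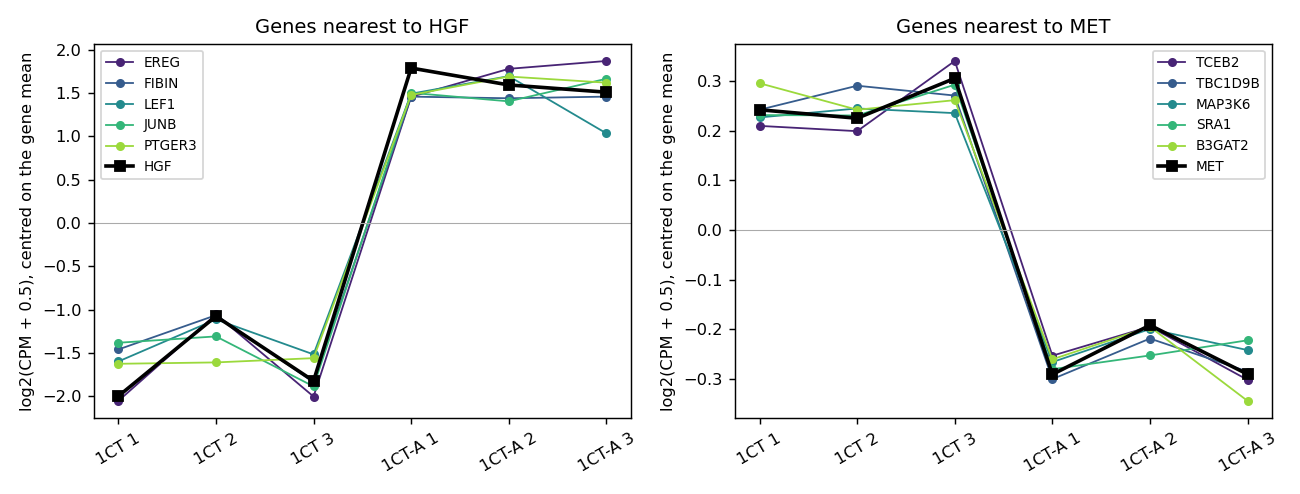
Profiles of HGF (left, black squares) and MET (right, black squares) with the 5 nearest genes of each, as log2(CPM + 0.5) centred on the mean of each gene over the 6 libraries. Lines join the values of a gene and imply no order of the libraries. HGF and its nearest genes lie below their mean in every 1CT library and above it in every 1CT-A library, and those of MET the other way round.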

How the data were processed

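Bulk RNA-seq of 3 1CT and 3 1CT-A libraries was analysed. The authors deposited raw counts per gene symbol, 1 file of 25737 entries for each library, without normalization or pooling, and repeated symbols were summed. The submitters' processing notes list Bowtie2, edgeR and hg19 without their role, and the counting tool, annotation and strand setting are not given in the sources used here, which leaves overlapping genes uncertain. CPM are counts scaled to a library total of 1e6. Log2 fold changes come from edgeR 4.0.16 in R 4.3.3 with TMM, filterByExpr (minimum count of 10) and its quasi-likelihood test with the cell line as the only term, and p-values were adjusted by Benjamini-Hochberg over all 12514 tested genes. The standard error is the absolute log2 fold change divided by the square root of F. The fit was tested on simulated data. No library was a copy of another (chi-square per degree of freedom 3.11 to 9.00 within a line). With 3 libraries a line, no exact permutation p can lie below 0.1, and none was used. Named pathway genes were the 3 largest calls in each direction and role with a mean of at least 5 CPM, plus MST1, HPN, PRSS8, PLAU, PLAT, TFPI2, CD44, PLXNB2, ITGB4, CBL, GRB2 and PTPN11, and others are named as picked after their values were seen. Of the genes this rule names, 2 are not reported here. The members and lists were chosen with earlier results of these data known. Alternatives used DESeq2 1.42.0, limma 3.58.1 (voom), other scalings and filters, a replicate block, an adjusted p under 0.01, and each library left out.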

Additional observations from a re-analysis of the deposited data

How the results depend on the processing

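The numbers of pathway genes called stayed within 1.5 times under every alternative run, with 18 to 21 higher and 20 to 22 lower over the other scalings, filters and tools and the replicate block. At an adjusted p under 0.01 they were 15 and 16, and leaving out any 1 library gave 15 to 20 and 17 to 23. The log2 fold change of HGF ran from 3.22 to 3.87 and that of MET from -0.58 to -0.52 with each library left out, and under the other alternatives from 3.42 to 3.49 and from -0.57 to -0.51. Only values near 0 changed sign. CD44 was at -0.0117 with at least 10 counts in every library and ran from -0.0303 (without 1CT replicate 3) to 0.0554 with each library left out. CBL was at 0.0105 with scaling by library totals alone and 0.0191 with no filter, and ran from -0.0948 to 0.0447 with each library left out, above 0 without 1CT replicate 2 or 1CT-A replicate 2 (0.026). Among the pathway genes named by the rule above, another 16 calls were lost and 2 gained, all given beside those genes. F12, CDCP1 and SPRY1, picked after their values were seen, are not included in these numbers. The replicate numbers share only a number. After removal of the group means, libraries with the same number correlated at -0.156, 0.216 and -0.136 over 8224 genes, and not every library correlated best with its own number. With the replicate block, HGF was at 3.45 and MET at -0.56, and 19 pathway genes were higher and 20 lower. No pathway gene named by the rule changed its call with this block, and 6091 instead of 6388 of all genes passed. Depth limits ST14, SPINT1, SPINT2, MST1R and HGFAC, of which 3 enter only the fit with no filter.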
